A study of Mus musculus with 7 samples.

Results

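Cytochrome P450 and glutathione transferase genes were examined in RNA from mouse midbrain, on captured tagged ribosomes and in the RNA left after that capture. The genes were matched by symbol: P450 genes with a family number, a single subfamily letter and a gene number, glutathione transferase genes of the alpha, kappa, mu, omega, pi and theta classes with a single digit, and the 3 microsomal ones. P450 genes with other symbols, such as Cyp51, Cyp2ab1, Cyp4a12a and Cyp4a12b, are not in the set. This gave 116 of 32531 gene rows, 93 P450 and 23 glutathione transferase genes. GENCODE M21 held 114 of the symbols, all as protein-coding genes, and did not match Cyp2c44 and Cyp2d13. Coordinates are from that annotation (GRCm38, the build also named mm10).

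All libraries came from the midbrain of adult control mice of one line, Stard8-TRAP ES2342, that received no treatment. These mice express a fusion of Rpl10a, a protein of the large ribosomal subunit, with the fluorescent protein EGFP, and Stard8 regulatory sequence drives it, so cells that do not use that sequence carry no tag. In TRAP (translating ribosome affinity purification) the tagged ribosomes are captured with antibodies to EGFP, and the RNA on them is sequenced. The immunopurified group (IP) had 3 libraries, replicates 1, 2 and 4, and the unbound group, the RNA left after capture, had 4, replicates 1 to 4. The labels do not say whether a library came from 1 animal or from a pool, and p-values measure only the spread between these libraries, which may be technical. The comparison of the groups asks which transcripts were on the tagged ribosomes more, or less, than in the RNA that stayed behind.

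Counts in genes ranged from 52052340 to 76114634 a library, so 3 counts stood for 0.0376 to 0.0589 CPM (a count relative to the effective size of its library). Stard8 had 352 ± 111 CPM in IP (SD, n = 3) and 4.23 ± 0.569 in unbound (SD, n = 4). The series text speaks of neurons, yet 9 of 10 neuron markers were lower in IP, with summed levels of 3228, 3464 and 7011 CPM in IP 1, 2 and 4 against 11976 to 19176 in unbound. All 14 endothelial markers (summed level 1485 to 2009 CPM in IP, 21.5 to 28.0 in unbound), all 12 pericyte and smooth muscle markers (3997 to 5681 against 30.7 to 50.1) and all 12 microglia and macrophage markers (1421 to 1472 against 46.1 to 82.4) were higher. Astrocyte markers were higher for 7 of 10 (1441 to 2072 against 543 to 1342), fibroblast and meningeal markers for 7 of 10 (372 to 521 against 77.9 to 145), and oligodendrocyte markers were lower for 9 of 10 (1234 to 1891 against 5589 to 7675). Of 9 ependymal and choroid plexus markers tested, 3 were higher and 1 was lower (143 to 425 against 157 to 294). The part these differences in cell source have in any result on a P450 or transferase gene was not tested. In such RNA pools, fewer cells of a type and less RNA per cell cannot be told apart.

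P450 enzymes are haem proteins that insert an oxygen atom into lipophilic molecules, and most sit in the endoplasmic reticulum, where they receive electrons from the reductase Por. In the brain the family is known for turning over cholesterol, steroids, retinoic acid and fatty acids as well as drugs. Glutathione transferases couple the tripeptide glutathione to electrophiles, among them products of P450 enzymes and of lipid peroxidation, and the cytosolic ones fall into classes named by Greek letters.

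Transferase genes took more counts than P450 genes. Their summed level was 1523, 1401 and 1390 CPM in IP 1, 2 and 4 and 518, 773, 535 and 575 CPM in unbound 1 to 4. P450 genes together reached 144, 146 and 194 CPM in IP and 153, 154, 180 and 156 CPM in unbound. The transferase sum was higher in each IP library than in each unbound library, while the P450 sums overlapped. Gstm1 alone made up 59.7% to 65.3% of the transferase sum in IP and 16.3% to 40.6% in unbound. Without Gstm1 the transferase sums of the groups overlapped too. Counts were too low to test 69 of the 116 genes, and 38 of these, all P450 genes, had 0 counts in every library. Of the 47 genes tested, 12 were higher in IP, 6 were lower and 29 did not pass an adjusted p of 0.05 in edgeR's quasi-likelihood test. Over all 17654 genes tested, 20.5% were higher and 18.9% were lower, 39.4% in all. Among P450 genes 4 were higher and 4 lower of 27 tested, with a median log2 fold change (IP minus unbound) of 0.16. Among transferase genes 8 were higher and 2 lower of 20, with a median of 0.30. The median over all genes tested was -0.10. Every IP library lay above every unbound library for 17 of the 47 genes and below for 7. These groups did not overlap for 25.1% of all genes tested (IP above) and 22.7% (IP below). Genes that passed the filter on low counts only through the group where they are high had to differ, so these counts describe the set and test nothing.

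**Figure D1:**
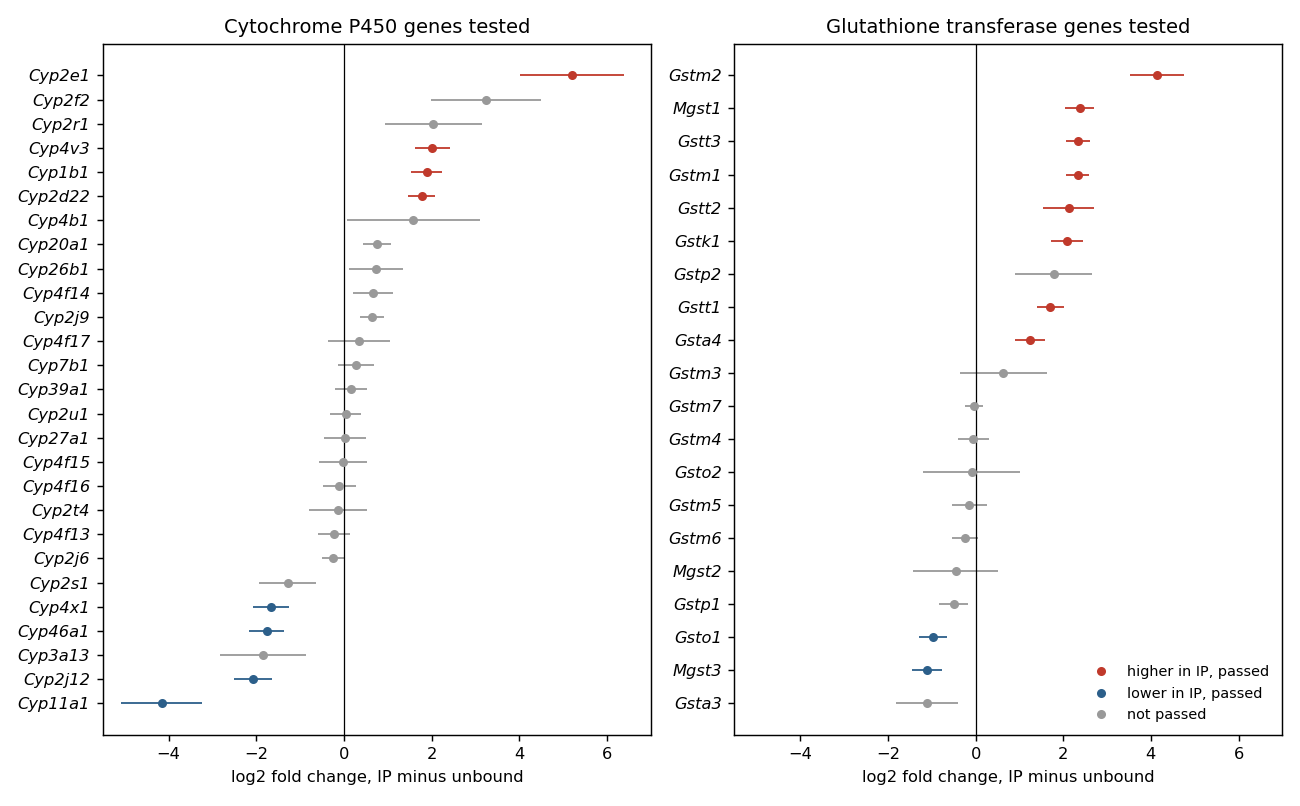
Log2 fold change of IP over unbound (points) with its standard error (bars) for the 27 P450 genes and 20 glutathione transferase genes tested, coloured by the result of the test. P450 genes spread from -4.16 (Cyp11a1) to 5.20 (Cyp2e1) with 4 past the threshold on each side, while 8 of the 10 transferase genes past it lie to the right of 0. Cyp11a1 and Cyp2e1 passed the filter on low counts only through the group where they are high, so they had to differ.

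Levels per kilobase of exon put Gstm1 first in both groups on average. In IP it stood at 611 CPM per kilobase, followed by Gsta4 at 129, Gstm5 at 62.6, Gstm7 at 38.4, Gstp1 at 32.5 and Mgst3 at 27.5. In unbound the order was Gstm1 at 122, Gstm5 at 69.3, Mgst3 at 59.0, Gsta4 at 54.5, Gstp1 at 45.9 and Gstm7 at 39.3. Gsta4 stood clear of Gstm5 in every IP library, but in unbound the library values of Gstm5, Mgst3, Gsta4 and Gstp1 overlapped and their order does not hold beyond that spread. In unbound 2, Gstm5 was above Gstm1. The P450 gene with the highest level per length was Cyp46a1 in unbound (15.8 CPM per kilobase) and Cyp2d22 in IP (8.76).

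The mu class is encoded by neighbouring genes on chromosome 3, in the order Gstm5, Gstm7, Gstm6, Gstm3, Gstm2, Gstm1 and Gstm4, and only Gstm5 is read from the plus strand. Mu class enzymes conjugate a broad range of electrophiles. Of the 7 genes, the adjacent pair Gstm2 and Gstm1 rose in IP and the other five did not pass the test. Gstm1 (chromosome 3, 108012255 to 108017973) measured 909, 885 and 908 CPM in IP 1, 2 and 4 and 174, 126, 185 and 234 CPM in unbound 1 to 4, the order used below. The IP libraries were nearly equal and far above all unbound libraries. The log2 fold change was 2.33 ± 0.26 (SE, adjusted p = 6.05e-05), a 5.01-fold difference of means. Gstm2 (107981702 to 107986453) measured 17.5, 10.6 and 10.3 CPM in IP and 0.138, 0.876, 0.645 and 1.25 CPM in unbound. It was low in unbound, lowest in unbound 1, and the groups did not overlap. Its log2 fold change was 4.14 ± 0.61 (adjusted p = 0.000441), with 4.81 within the libraries of index sequence ACAGTG (IP 1 and 2, unbound 1 and 2) and 3.45 within GTGAAA (IP 4, unbound 3 and 4).

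Gstm7, Gstm5, Gstm6 and Gstm4, on either side of this pair, overlapped between the groups. Gstm7 (107926334 to 107931817) had 66.4, 62.3 and 55.7 CPM in IP and 68.5, 60.7, 64.8 and 57.7 in unbound. All 7 libraries fell in one narrow band, and the log2 fold change was -0.03 ± 0.20 (adjusted p = 0.909). Gstm5 (107895821 to 107898686) had 95.2, 74.8 and 70.1 CPM in IP and 41.3, 168, 78.0 and 66.8 in unbound. Its unbound libraries ranged on both sides of IP, with unbound 2 highest and unbound 1 lowest, and the log2 fold change was -0.15 ± 0.40 (adjusted p = 0.801). The means of Gstm6 were 9.81 ± 1.89 CPM in IP and 11.6 ± 2.48 in unbound, and those of Gstm4 were 6.17 ± 1.46 and 6.39 ± 2.14 (SD, n = 3 and 4). Neither passed the test. Gstm3 stayed at 0.226 CPM or less in every library.

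Because library depth cancels within a library, the ratio of 2 neighbouring genes does not depend on the scaling. Gstm1 had 13.7 to 16.3 times the CPM of Gstm7 in IP libraries and 2.07 to 4.05 times in unbound libraries. Against Gstm5 the ratios were 9.55 to 12.9 in IP and 0.747 to 4.22 in unbound. Neither pair of ranges overlapped, while those of Gstm7 to Gstm5 did (0.697 to 0.833 in IP, 0.361 to 1.66 in unbound). The ratios here and below restate the same values and are no further test. Gstm1 alone took 59.7% to 65.3% of the summed transferase CPM in IP and 16.3% to 40.6% in unbound. Of the 50-base words in Gstm1 transcripts, 18.9% also occur in transcripts of other genes, most of them (14.1%) in the pseudogene Gstm2-ps1, so part of its reads may have been left out as not unique. For Gstm2 that share was 5.7%, for Gstm5 9.4% and for Gstm7 0.5%. Exons of Gstm5 are overlapped by another gene, 4933431E20Rik, over 13.9% of their length.

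**Figure D2:**
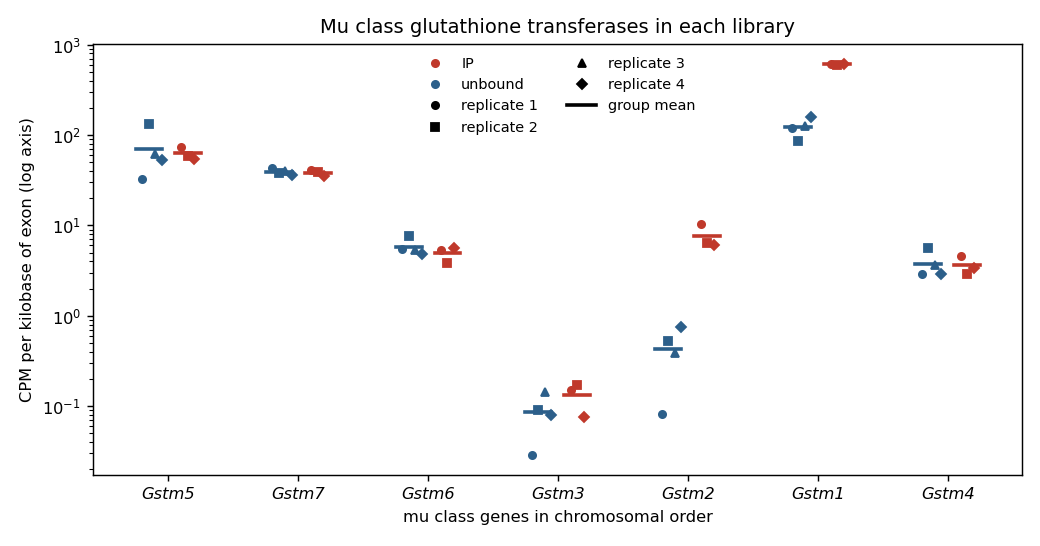
CPM per kilobase of exon on a log axis for the 7 mu class genes in chromosomal order, 1 point per library (marker shape gives the replicate) and a line at each group's mean. IP points lie above all unbound points for Gstm1 (611 against 122 on average) and Gstm2, and overlap them for the genes around these.

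The sequences just upstream of 4 mu class genes and of Cyp1b1 are shown because these gene families are textbook targets of sensors that bind short motifs, the antioxidant response element for Nfe2l2 and the dioxin response element for the aryl hydrocarbon receptor Ahr. They were taken from RefSeq promoters (GRCm38.p6), up to 250 bases before the start site, 5′ to 3′ on the gene's strand. Gstm1 is chr3:108017974-108018223 (minus), Gstm2 chr3:107986454-107986670 (minus), Gstm5 chr3:107895604-107895820 (plus), Gstm7 chr3:107931818-107932067 (minus) and Cyp1b1 chr17:79715062-79715311 (minus). Capitals mark matches on either strand to the antioxidant core TGACNNNGC or the dioxin core GCGTG, which reads CACGC on the other strand.
Gstm1: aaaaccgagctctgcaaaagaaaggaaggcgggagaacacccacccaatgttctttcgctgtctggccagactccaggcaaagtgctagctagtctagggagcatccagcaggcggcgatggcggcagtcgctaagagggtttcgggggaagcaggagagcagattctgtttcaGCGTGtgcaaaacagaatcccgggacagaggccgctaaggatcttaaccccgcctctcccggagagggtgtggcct
Gstm2: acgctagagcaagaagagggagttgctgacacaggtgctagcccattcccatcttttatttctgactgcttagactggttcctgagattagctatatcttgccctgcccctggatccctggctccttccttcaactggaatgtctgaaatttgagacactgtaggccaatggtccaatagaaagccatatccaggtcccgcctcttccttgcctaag
Gstm5: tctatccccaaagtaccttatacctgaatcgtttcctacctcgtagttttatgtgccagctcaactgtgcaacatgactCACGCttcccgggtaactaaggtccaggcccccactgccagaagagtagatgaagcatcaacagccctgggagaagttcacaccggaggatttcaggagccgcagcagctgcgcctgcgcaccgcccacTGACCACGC
Gstm7: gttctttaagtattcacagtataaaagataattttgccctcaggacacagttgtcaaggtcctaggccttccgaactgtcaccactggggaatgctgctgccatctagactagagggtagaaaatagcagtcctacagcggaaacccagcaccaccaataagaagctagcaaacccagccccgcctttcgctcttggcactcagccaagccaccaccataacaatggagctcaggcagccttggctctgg
Cyp1b1: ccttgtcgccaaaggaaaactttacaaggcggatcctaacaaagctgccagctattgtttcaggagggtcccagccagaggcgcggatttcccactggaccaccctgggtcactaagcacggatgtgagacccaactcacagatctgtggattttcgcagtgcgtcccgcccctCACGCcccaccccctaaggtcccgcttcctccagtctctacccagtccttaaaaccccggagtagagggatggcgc
Of the 2 genes that rose in the cluster, Gstm1 held 1 dioxin core and no antioxidant core, and Gstm2 held neither. Gstm5 held 1 antioxidant core and 2 dioxin cores, 1 of which overlaps the antioxidant core, and its level did not pass the test. Gstm7 held none, and Cyp1b1 held 1 dioxin core. A window was available for 39 of the 47 genes tested. The antioxidant core occurred in 1 of 9 genes higher in IP (Mgst1), 0 of 5 lower and 2 of 25 that did not pass (Gsta3 and Gstm5), against 10.1% of windows of 27025 genes. The dioxin core occurred in 3 of 9 higher genes (Cyp1b1, Cyp4v3 and Gstm1), 3 of 5 lower genes (Cyp2j12, Cyp46a1 and Mgst3) and 6 of 25 others, against 28.3% of windows. A match is a description of the letters, not a site in use.

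Theta class enzymes act on small halogenated and other reactive molecules and are encoded side by side on chromosome 10. All 3 that could be tested rose in IP. Gstt3 (75774115 to 75781414) measured 28.0, 25.0 and 26.2 CPM in IP and 5.04, 4.31, 4.53 and 7.0 in unbound. Its groups were tight and far apart, at a log2 fold change of 2.34 ± 0.27 (adjusted p = 7.68e-05). Gstt1 (75783813 to 75798584) measured 48.9, 34.8 and 28.9 CPM in IP and 13.7, 15.6, 9.01 and 7.69 in unbound. The lowest IP library was still above the highest unbound one, and the log2 fold change was 1.70 ± 0.31 (adjusted p = 0.00169). Gstt2 (75831114 to 75837424) measured 20.0, 16.9 and 8.41 CPM in IP and 0.990, 7.73, 2.50 and 2.66 in unbound. IP 4 and unbound 2 nearly met, and the log2 fold change was 2.12 ± 0.59 (adjusted p = 0.016). Gstt2 lost the call without IP 1 (adjusted p = 0.0633) or IP 2 (0.0551), and its log2 fold change was 2.88 without unbound 2 (adjusted p = 0.00131). Gstt4, the class's remaining gene, had 36, 0 and 31 counts in IP and 6 counts in unbound, all in unbound 4, too few to test. The ratio of Gstt3 to Gstt1 overlapped between the groups, at 0.573 to 0.908 in IP libraries and 0.276 to 0.911 in unbound libraries. That of Gstt2 to Gstt1 overlapped as well. Exons of Gstt3 are overlapped by another gene, Gm20441, over 13.6% of their length.

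In the other cytosolic classes Gsta4 and Gstk1 rose, Gsto1 fell, and Gsta3, Gsto2, Gstp1 and Gstp2 did not pass. Gsta4, which clears the lipid peroxidation product hydroxynonenal (chromosome 9, 78182774 to 78209349), measured 185, 167 and 136 CPM in IP and 37.4, 111, 51.3 and 76.5 in unbound. All IP libraries were higher, with unbound 2 nearest to them, and the log2 fold change was 1.24 ± 0.34 (adjusted p = 0.0144). It missed the threshold without IP 1 (adjusted p = 0.0542) or IP 2 (0.0503). Gstk1, an enzyme of mitochondria and peroxisomes (chromosome 6, 42245935 to 42250447), measured 27.2, 22.1 and 18.9 CPM in IP and 3.01, 8.97, 4.12 and 5.29 in unbound. The groups were apart by more than their spread, at 2.09 ± 0.37 (adjusted p = 0.00146). Gsta3, also of the alpha class, was low, at 0.547 ± 0.14 CPM in IP and 1.18 ± 0.57 in unbound, and did not pass.

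Gsto1, an omega class enzyme that reduces dehydroascorbate (chromosome 19, 47854970 to 47864790), measured 7.93, 5.94 and 9.20 CPM in IP and 14.3, 21.9, 12.5 and 11.4 in unbound. Every IP library was lower, and the level fell by 0.97 ± 0.32 on the log2 scale (adjusted p = 0.0347). It was -0.36 within GTGAAA (adjusted p = 0.406). That call was lost without IP 1 (adjusted p = 0.099), IP 2 (0.148) or unbound 2 (0.0578). Gstp1, the pi class enzyme (chromosome 19, 4035407 to 4037985), had 55.2, 42.5 and 53.0 CPM in IP and 94.3, 102, 47.8 and 40.2 in unbound. Unbound 1 and 2 were high and unbound 3 and 4 were at the level of IP, so that the difference of -0.50 ± 0.34 on the log2 scale did not pass (adjusted p = 0.265). Of the words in Gstp1 transcripts 33.7% also occur in Gstp2, its near copy next door, and counts of both are uncertain.

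The microsomal transferases are membrane proteins of another fold that also reduce lipid hydroperoxides, and 2 of the 3 moved in opposite directions. Mgst1 (chromosome 6, 138140316 to 138156755) measured 13.9, 10.3 and 11.4 CPM in IP and 2.41, 2.22, 2.87 and 1.66 in unbound. Its groups were well apart, at a log2 fold change of 2.38 ± 0.33 (adjusted p = 0.000275). Mgst3 (chromosome 1, 167371966 to 167393841) measured 28.0, 28.5 and 33.9 CPM in IP and 44.4, 115, 53.1 and 46.5 in unbound. All IP libraries were lower, and unbound 2 stood far above the other unbound libraries. Its log2 fold change was -1.10 ± 0.35 (adjusted p = 0.0272), a call that was lost without IP 1 (adjusted p = 0.0972), IP 2 (0.101) or IP 4 (0.0512). The ratio of Mgst1 to Mgst3 was 0.337 to 0.497 in IP libraries and 0.0193 to 0.0542 in unbound libraries. Mgst2 was below 1 CPM in both groups on average, at 0.508 ± 0.194 and 0.693 ± 0.686.

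**Figure D3:**
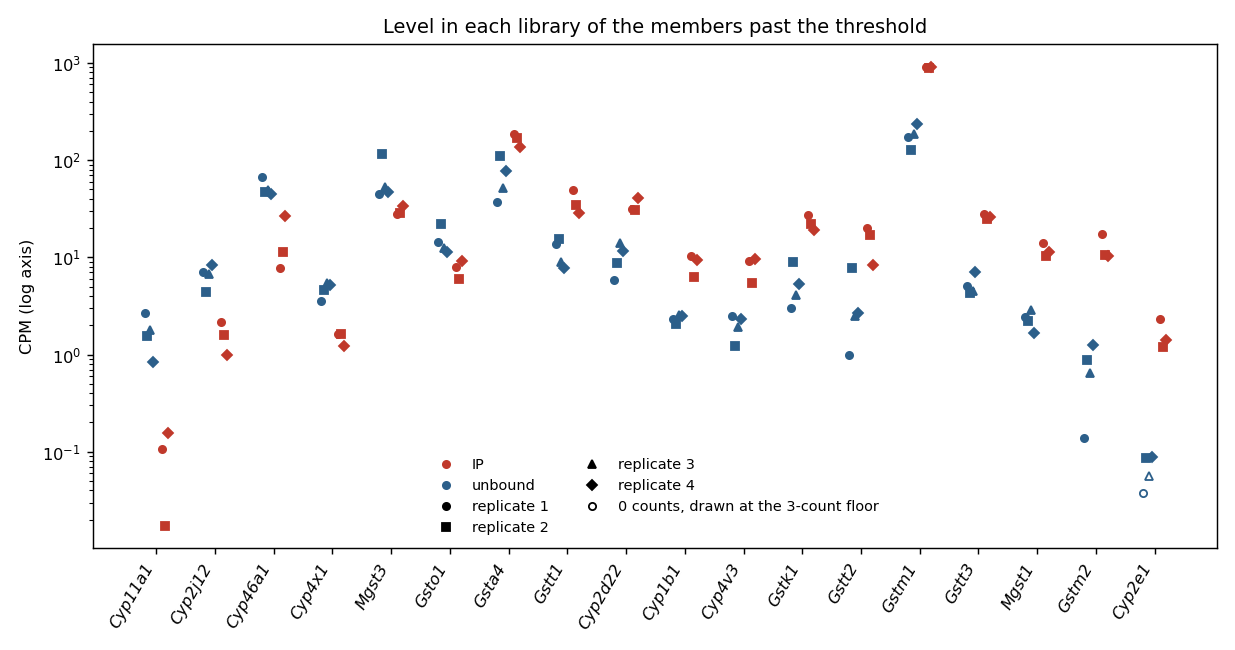
CPM on a log axis in each library for the 18 genes past the threshold, ordered by log2 fold change, with marker shape giving the replicate and open symbols standing for 0 counts drawn at the level of 3 counts. IP and unbound points do not overlap in any of the 18, and unbound 2 (blue squares) comes closest to IP for Gsta4 and Gstt2. The 18 genes were chosen by the test on these same libraries, so the lack of overlap follows in part from that choice and is no further test.

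Of the P450 genes, those that handle cholesterol and its oxysterols included the one with the highest level in unbound RNA. Cyp46a1, the neuronal hydroxylase that turns brain cholesterol into an oxysterol that can leave the brain (chromosome 12, 108334381 to 108362234), measured 7.75, 11.4 and 26.7 CPM in IP against 66.7, 46.7, 49.6 and 44.6 in unbound. Every IP library was lower, and IP 4 was the highest of them, as it was for the summed neuron markers. This was not particular to neurons. IP 4 was also the highest IP library for the summed oligodendrocyte, astrocyte, ependymal, fibroblast and microglia markers. It was the lowest for the endothelial and the pericyte markers. The log2 fold change was -1.77 ± 0.40 (adjusted p = 0.00563). It was -2.43 without IP 4 (adjusted p = 0.000426). Within the libraries with index sequence ACAGTG it was -2.57, and within GTGAAA -0.80. Cyp46a1 took 27.6% to 43.6% of the summed P450 CPM in unbound and 5.38% to 13.8% in IP.

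The other genes tested for cholesterol and oxysterol metabolism did not pass. Cyp27a1, a mitochondrial sterol hydroxylase (chromosome 1, 74713574 to 74737892), had 5.21, 6.85 and 8.33 CPM in IP and 2.08, 9.12, 9.56 and 6.03 in unbound. The groups overlapped fully, at a log2 fold change of 0.02 ± 0.48 (adjusted p = 0.979). Cyp7b1, an oxysterol and steroid hydroxylase (chromosome 3, 18071950 to 18243338), had 4.31, 6.55 and 5.97 CPM in IP and 7.03, 5.27, 3.62 and 2.68 in unbound. Unbound 1 was the highest of all libraries, and the difference was 0.27 ± 0.41 (adjusted p = 0.634). Cyp39a1, which hydroxylates the product of Cyp46a1, averaged 8.59 ± 1.91 CPM in IP and 7.68 ± 2.81 in unbound and differed by 0.16 ± 0.37 on the log2 scale (adjusted p = 0.754). Within libraries, Cyp39a1 had 0.242 to 1.31 times the CPM of Cyp46a1 in IP and 0.0623 to 0.221 times in unbound.

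**Figure D4:**
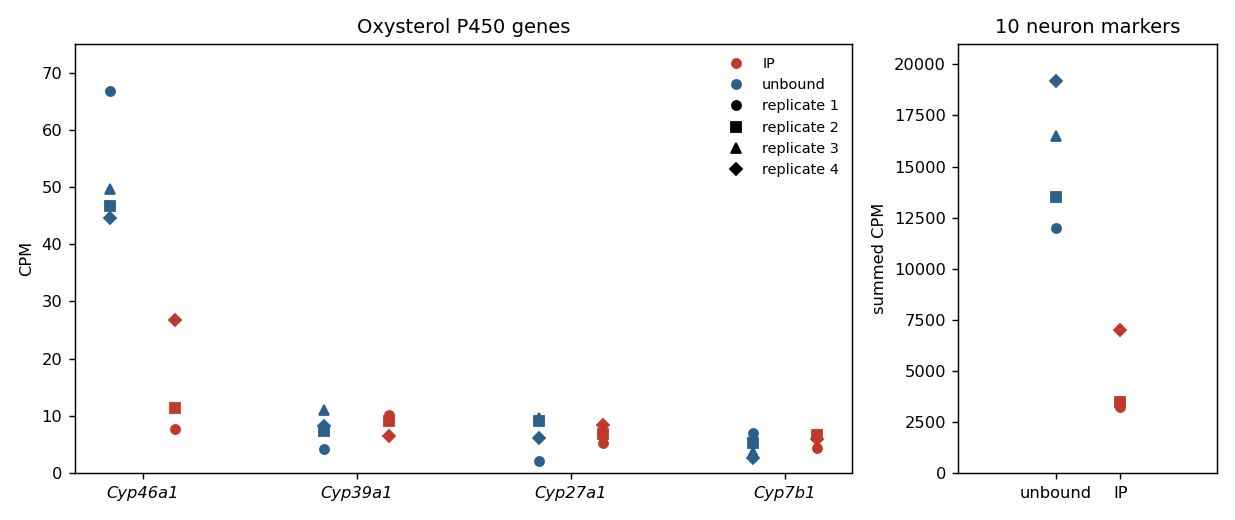
Left, CPM in each library of 4 P450 genes of cholesterol and oxysterol metabolism; right, the summed CPM of 10 neuron markers (marker shape gives the replicate in both). For Cyp46a1 and the neuron markers all IP points lie below all unbound points and IP 4 is the highest IP point (26.7 and 7011 CPM), while IP and unbound points of the other 3 P450 genes overlap. IP 4 was also the highest IP library for several marker sets not drawn here.

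Cyp11a1, the mitochondrial side-chain cleavage enzyme that starts steroid hormone synthesis (chromosome 9, 58006411 to 58027023), was low, with 17 counts over the IP libraries. It measured 0.107, 0.0174 and 0.157 CPM in IP and 2.66, 1.55, 1.78 and 0.829 in unbound. All IP libraries were far below all unbound libraries, at a log2 fold change of -4.16 ± 0.92 (adjusted p = 0.00486). Within index ACAGTG it was -5.00 and within GTGAAA -3.01. Cyp11a1 passed the filter on low counts through the unbound libraries alone and had to differ. Its call therefore describes the gene and tests nothing. Other steroid-synthesis genes were barely present. Cyp17a1 had 15 counts in IP, all in IP 2, and 10 over the unbound libraries. The aromatase gene Cyp19a1 had 6 counts in IP, all in IP 4, and 1 in unbound, so no ratio is given. Cyp11b2 had 3 and 0 and Cyp21a1 had 1 and 0.

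The single CYP1 gene tested rose, and of 10 CYP2 genes tested, the CYP2J and CYP2U genes included, 2 rose, 1 fell and 7 did not pass. Cyp1b1, a monooxygenase of oestrogens, retinoids and polycyclic hydrocarbons that is induced through Ahr (chromosome 17, 79701537 to 79715061), measured 10.4, 6.25 and 9.43 CPM in IP and 2.32, 2.08, 2.56 and 2.47 in unbound. The unbound libraries were nearly equal and all below IP, at a log2 fold change of 1.88 ± 0.34 (adjusted p = 0.00164). The other members of its family were at the limit of detection, with 2 and 1 counts over the IP and the unbound libraries for Cyp1a1 and 0 and 2 for Cyp1a2.

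Cyp2d22, the mouse CYP2D gene with the highest level here (chromosome 15, 82370527 to 82380260), measured 31.2, 30.6 and 41.0 CPM in IP and 5.81, 8.83, 13.9 and 11.6 in unbound. No library overlapped with the other group, and the log2 fold change was 1.77 ± 0.31 (adjusted p = 0.00134). Its share of the summed P450 CPM was 20.9% to 21.7% in IP and 3.80% to 7.76% in unbound. Cyp2e1, known for oxidising ethanol (chromosome 7, 140763739 to 140774987), measured 2.33, 1.18 and 1.40 CPM in IP and 0, 0.0859, 0 and 0.0882 in unbound. It was near the floor in unbound, and the log2 fold change of 5.20 ± 1.19 (adjusted p = 0.00604) rests on 10 unbound counts. Without unbound 4 it was 5.78 (adjusted p = 0.0119). Cyp2e1 passed the filter on low counts through the IP libraries alone and had to differ, so its call tests nothing. Cyp2s1 had 1.05, 1.43 and 6.66 CPM in IP and 4.30, 5.10, 11.1 and 9.05 in unbound. IP 4 lay among the unbound libraries, and the difference of -1.28 ± 0.65 did not pass (adjusted p = 0.141). Without IP 4 it was -2.57 (adjusted p = 0.00635), and 5 of 18 alternatives in all gave a call, among them voom (adjusted p = 0.0401) and the index sequence as a covariate (0.0198).

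Fatty acid P450 genes moved both ways. Cyp4v3, a fatty acid hydroxylase (chromosome 8, 45304944 to 45333216), measured 9.23, 5.38 and 9.57 CPM in IP and 2.52, 1.24, 1.90 and 2.29 in unbound. All IP libraries were higher, at a log2 fold change of 2.02 ± 0.40 (adjusted p = 0.00273). Cyp4x1, an enzyme known to act on the endocannabinoid anandamide (chromosome 4, 115106323 to 115134281), measured 1.63, 1.62 and 1.22 CPM in IP and 3.53, 4.59, 5.50 and 5.21 in unbound. All IP libraries were lower, at -1.66 ± 0.42 (adjusted p = 0.00947). Of its exon length 10.7% is overlapped by Cyp4x1os, whose reads cannot be told apart from its own if the counting ignored strand.

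The CYP2J epoxygenases share a cluster on chromosome 4 and differed among themselves. Cyp2j12 (96099318 to 96141152) measured 2.15, 1.59 and 0.982 CPM in IP and 7.14, 4.43, 6.81 and 8.24 in unbound. It was lower in all IP libraries, at -2.08 ± 0.43 (adjusted p = 0.00361), and -2.92 within index GTGAAA. Cyp2j9 lay higher in each IP library, at 13.8 ± 0.85 CPM against 8.90 ± 1.92, yet its 0.64 ± 0.28 did not pass (adjusted p = 0.0911). Cyp2j6 had 11.4 ± 2.44 and 13.4 ± 1.67 CPM, with overlapping groups and a difference of -0.24 ± 0.27 (adjusted p = 0.511). The ratio of Cyp2j9 to Cyp2j12 was 6.83 to 13.2 in IP libraries and 0.937 to 2.46 in unbound libraries.

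The rest of the fatty acid group did not pass. Cyp2u1, a long-chain fatty acid hydroxylase (chromosome 3, 131288441 to 131303227), had 3.16, 4.41 and 4.70 CPM in IP and 3.77, 4.19, 4.27 and 3.69 in unbound. The groups overlapped, with a difference of 0.04 ± 0.36 (adjusted p = 0.944). The 5 CYP4F genes tested, a group known for hydroxylating leukotrienes, ranged from -0.22 ± 0.36 (Cyp4f13) to 0.66 ± 0.46 (Cyp4f14), and all overlapped between groups. For Cyp20a1, an orphan P450, all IP libraries were higher, at 11.1 ± 0.903 CPM against 6.60 ± 2.09, and 0.75 ± 0.33 did not pass (adjusted p = 0.0913). Without unbound 2, Cyp20a1 passed at 0.91 (adjusted p = 0.0435) and Cyp2j9 at 0.75 (0.0438).

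Retinoic acid is degraded by the CYP26 enzymes, of which Cyp26b1 alone had enough counts to test. Cyp26b1 (chromosome 6, 84571414 to 84593908) had 1.53, 6.53 and 17.6 CPM in IP and 4.64, 4.33, 5.77 and 5.82 in unbound. The IP libraries spread from below to above all unbound libraries, and the log2 fold change of 0.73 ± 0.61 did not pass (adjusted p = 0.365). It was -0.34 without IP 4 (adjusted p = 0.669) and passed in 1 of 18 alternatives, within index GTGAAA, at 1.62 (adjusted p = 0.000306). Cyp26a1 had 0 counts in every IP library and 75, 1, 25 and 1 counts in unbound 1 to 4, at least 25.2-fold lower in IP against a floor of 3 counts over the group. Most of these counts were in unbound 1, and without it the bound was at least 9.84-fold. Cyp26c1 had 0 counts in IP and 10 in unbound. Cyp24a1, which inactivates vitamin D, had 12 counts in IP, all in IP 4, and 5 in unbound. Cyp2r1, which activates it, was at 0.812 ± 0.178 CPM in IP and 0.197 ± 0.139 in unbound and did not pass (2.04 ± 1.10, adjusted p = 0.165).

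The remaining tested genes were low. Cyp3a13 was at 0.294 ± 0.263 CPM in IP and 1.07 ± 0.635 in unbound. Cyp2f2, Cyp2t4, Cyp4b1, Gsto2 and Gstp2 were below 1 CPM on average in both groups, and none passed. Of the 31 genes with counts that were too few to test, Cyp26a1 and Gstt4 had the largest totals, and the next were 12 counts over IP and 55 over unbound libraries for Cyp4f18, 1 and 29 for Cyp2c55, and 2 and 25 for Cyp2j8. Gsta2 had 17 and 9, and Cyp2b19 had 1 and 17. Counts of 14 or fewer in all were found for Cyp2j13, Cyp2a5, Cyp2c44, Cyp27b1, Cyp4f39, Cyp4f37, Cyp2d13, Cyp2g1, Gsta1, Cyp2b10, Cyp2b13, Cyp2d12, Cyp2a22, Cyp2c68, Cyp3a57 and Cyp4a14.

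Genes that serve the same pathways were taken from lists, and their counts stand beside the 20.5% of all genes tested that were higher and the 18.9% that were lower. Of 12 genes for P450 redox partners 11 were tested, 2 rose and 2 fell (18.2% each), with a median log2 fold change of 0.34, where all genes tested had -0.10. Por, which feeds electrons to microsomal P450 enzymes, did not pass (-0.40 ± 0.27, adjusted p = 0.265), with means of 31.6 ± 10.3 CPM in IP and 41.8 ± 8.09 in unbound. The cytochrome reductase gene Cyb5r3 had the highest CPM of the list in IP and rose, from 90.0 ± 4.47 CPM in unbound to 440 ± 61.9 in IP (2.29 ± 0.22, adjusted p = 1.98e-05). Cyb5r4 rose by 0.66 ± 0.24, a call that 10 of 18 alternatives lost. The haem-binding partners Pgrmc1 (-1.34 ± 0.26) and Pgrmc2 (-1.19 ± 0.21) fell.

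Of 14 sensor and regulator genes 13 were tested, 7 rose (53.8%) and 0 fell, with a median of 0.77. Nfe2l2, a factor that binds antioxidant response elements, had 200 ± 11.8 CPM in IP and 20.0 ± 7.53 in unbound (3.32 ± 0.33, adjusted p = 3.04e-05), and its small partner Maff rose by 3.02 ± 0.31. Ahr rose by 1.40 ± 0.28, its partner Arnt by 1.61 ± 0.27 and its target and repressor Tiparp by 0.95 ± 0.21. Rxra, the partner of many nuclear receptors, rose by 1.17 ± 0.21, and Bach1, a repressor at antioxidant elements, by 0.77 ± 0.27, which 7 of 18 alternatives lost. Arnt2, with the highest CPM of the list in unbound, had 143 ± 72.3 CPM in IP and 264 ± 59.3 in unbound and did not pass (adjusted p = 0.0611).

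In the list for glutathione supply and use, 3 of 16 genes rose and 3 fell (18.8% each), with a median of 0.10. Ggt5, which cleaves glutathione and leukotrienes outside the cell, rose from 0.267 ± 0.0757 CPM in unbound to 19.3 ± 5.35 in IP (6.16 ± 0.39, adjusted p = 1.83e-06), and its relative Ggt1 rose by 4.82 ± 0.79. Ggt7 fell by 2.27 ± 0.40. Neither subunit of the enzyme that limits glutathione synthesis passed, with differences of 0.03 ± 0.20 for Gclc and 0.19 ± 0.21 for Gclm. Gpx1, with the highest mean CPM of the list in both groups, overlapped between groups (236 ± 62.5 CPM in IP, 125 ± 121 in unbound). The peroxidase Gpx8 rose by 3.94 ± 0.35, while Chac1, which degrades glutathione, fell by 1.81 ± 0.37 and the synthetase gene Gss by 0.96 ± 0.31, a call lost in 7 of 18 alternatives.

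Among 24 genes for other conjugating and hydrolysing enzymes 22 were tested, 12 rose (54.5%) and 3 fell (13.6%), with a median of 1.75. The flavin monooxygenase gene Fmo2 had 212 ± 82.2 CPM in IP and 0.743 ± 0.406 in unbound (8.14 ± 0.53, adjusted p = 2.24e-06). Hpgds, a sigma class glutathione transferase that makes prostaglandin D, rose by 4.23 ± 0.31, and the epoxide hydrolase gene Ephx1, whose enzyme opens epoxides that P450 enzymes form, by 2.98 ± 0.27. Sult4a1, a brain sulfotransferase with the highest CPM of the list in unbound, fell by 1.96 ± 0.30. Ugt8a, the enzyme for myelin galactolipids, fell by 2.23 ± 0.40. The third gene that fell, Ces1d, had 0 counts in IP and 79, 13, 10 and 1 counts in unbound 1 to 4, and 4 of 13 alternatives lost its call. Ces1d passed the filter on low counts through the unbound libraries alone, so it had to differ. Of 6 genes for P450-fold enzymes outside the symbol pattern 3 were tested, 2 rose (66.7%) and 1 fell (33.3%). Thromboxane synthase, Tbxas1, rose by 3.74 ± 0.46. Prostacyclin synthase, Ptgis, rose by 1.81 ± 0.47, a call that 2 of 18 alternatives lost. Cyp51, of cholesterol synthesis, fell by 1.14 ± 0.25. The summed markers of vessels, microglia and macrophages, astrocytes, and fibroblasts and meninges were each higher in every IP library than in every unbound library. Any gene called higher in IP moves with them by definition. The cell source of the genes that rose was not tested.

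Libraries differed in 2 technical labels. IP and unbound libraries shared no lane label, so lane and group cannot be told apart. Reads that matched more than 1 gene made up 1.43% to 1.63% of reads in IP files and 7.26% to 11.5% in unbound files, and reads aligned to several places 33.0% to 39.6% and 17.6% to 34.6%. Such reads entered no gene's count, and their part in the values of clustered genes such as the mu class was not tested.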

How the data were processed

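RNA-seq was analysed from 3 IP and 4 unbound libraries. The deposited files hold raw read counts as whole numbers, 1 row a gene symbol. STAR 2.0.0e was used for alignment to mm10 and HTSeq for counting, per the submitters' processing notes. Annotation, strand setting and read filters: not given in the sources used here. The 6 rows that name no gene held 42.0% to 59.8% of the reads in a file and were left out.

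Counts were tested with edgeR 4.0.16 (R 4.3.3): filterByExpr kept 17654 genes, TMM set the effective library sizes, and the robust quasi-likelihood test (2-sided) compared IP with unbound, with no block for the replicate number. Benjamini-Hochberg adjustment over all these genes was applied at 0.05. Standard errors are the absolute log2 fold change over the square root of F. Levels between genes were compared per kilobase of exon (GENCODE M21). Intervals and floors (3 counts) cover counting error alone, because reads that carry no molecular identifier are not independent molecules. The fit was tested on simulated data, in which 200 genes were made to differ. Simulated 4-fold changes passed the threshold in 61% of cases, but 2-fold changes in only 4%. Among the 71 genes that passed there, 6 (8.45%) had not been changed. A gene that did not pass may therefore still differ by 2-fold, and failing the test does not show equal levels.

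The members and lists were chosen with earlier results of these data known. Every member could be named. The 39 with a mean of at least 1 CPM in a group were described by role, with the value in every library for those past the threshold, those with the highest level per length and a list of well-known ones. From each pathway list came the gene with the smallest p, the one with the highest mean CPM over the libraries and the leading gene against the majority, and further genes were named after their values were seen. Motifs were searched in RefSeq windows of 250 bases, and transcripts were compared in 50-base words.

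Alternatives changed the scaling (RLE, or library size alone), the filter (none, or at least 1 CPM in 3 libraries), the tool (DESeq2 1.42.0, or voom in limma 3.58.1), the model (the replicate number as a block, or index sequence as a covariate) and the libraries (within each index, and without each library). After seeing the data, a fit that left out IP 4 together with unbound 2 was added.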

Additional observations from a re-analysis of the deposited data

Results flagged for a closer look

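The level of Mgst3, a microsomal glutathione transferase, was 115 CPM in unbound 2, while the other unbound libraries had 44.4, 46.5 and 53.1 CPM. Its gap to the nearest library was 0.877 of the group's range, above Dixon's 95% critical value for 4 samples. The unbound levels of 39 genes were examined in this way, and chance marks about 1 in 20. Gstm5 (168 CPM) was also highest in unbound 2 but stayed below that critical value.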

How the results depend on the processing

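No call of a P450 or transferase gene reversed. Over 18 alternatives, 701 estimates for 39 genes were made, of which 667 stayed on the same side of the threshold, 23 lost a call and 11 gained one. A further view of sign is that 48 estimates of 14 genes, called in neither fit, changed sign, between -0.55 and 0.46. Within index ACAGTG alone (2 IP, 2 unbound), 2190 genes were higher and 1650 lower over all genes, 2 and 2 among P450 genes, and 5 and 0 among transferase genes. There Gsta4, Gstk1, Gstt2, Gsto1, Mgst3, Cyp2e1, Cyp2j12, Cyp4v3 and Cyp4x1 lost their calls. Within index GTGAAA, where the lone IP library was assumed to vary like the unbound ones, 0 transferase genes were lower. Leaving out 1 library gave 1751 (without IP 2) to 3632 genes lower over all genes and 0 (without IP 1 or IP 2) to 2 lower transferase genes. Whether replicate numbers pair the libraries was not settled. Deviations of the same number correlated at -0.0271, 0.0423 and 0.158 for IP 1, 2 and 4. IP 2 and IP 4 correlated best with the unbound library of their own number, while IP 1 correlated best with unbound 2, at 0.199. Correlations this weak cannot decide the question. With the replicate number as a block, 1 transferase gene was lower, and Gsto1 (adjusted p = 0.077) and Cyp4x1 (0.0554) lost their calls, while Cyp2s1 gained one (0.0476). The cause of each change was not tested. The 31 genes with counts that the low-count filter removed were not tested.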
